A study of Mus musculus with 12 samples.

Results

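The genes of the proteasome were followed in the aorta of Eln+/- mice on the C57BL/6J strain, which carry 1 functional copy of the elastin gene and so have an artery poor in the protein of its elastic layers. The members are the protein-coding genes whose symbol starts with Psma, Psmb, Psmc, Psmd or Psme and a number, which gave 45 of the 50600 genes counted. RNA was sequenced from the aorta from its left subclavian branch down to the diaphragm in 3 groups of 4 mice, with 1 library a mouse. The control group was given plain water. The on-drug group drank water with minoxidil for 2 weeks from 2.5 to 3 months of age. The off-drug group had the same course followed by drug-free water for 1 week. Minoxidil relaxes arterial smooth muscle by opening potassium channels that ATP closes. Every mouse, controls included, was Eln+/- and is labelled as 3 months old, so no comparison with a normal aorta is possible. If treatment began at the same age in both treated groups, the off-drug mice were older at collection than the on-drug mice, and that difference and drug withdrawal cannot be told apart. The sex of the mice, their cages and the hour of collection are not given in the labels.

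The proteasome is the large protease that degrades proteins tagged with ubiquitin. Its barrel, the 20S core, is built from outer rings of alpha subunits and inner rings of beta subunits, and 3 of the beta subunits carry the cutting sites. The 19S cap sits on the end of the barrel, where a base of ATPases unfolds the substrate and a lid removes the ubiquitin chain. Interferon induces 3 replacement catalytic subunits (Psmb8, Psmb9 and Psmb10), and a core that holds them is called the immunoproteasome, abundant in immune cells and tuned to make peptides for class I antigen presentation. Further activators, the 11S rings of Psme1 and Psme2 or of Psme3 and the single-chain Psme4, can take the cap's place. Most core and cap genes are made in step with each other, under the transcription factors Nfe2l1 and NF-Y. In the smooth muscle of an artery, as in other cells, the proteasome removes damaged proteins and short-lived regulators.

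By role the members were 14 constitutive subunits of the 20S core, 17 subunits of the 19S cap, 3 immunoproteasome subunits and 5 activators, with 6 others. These others were Psma8, an alpha subunit of the testis, Psmb11, a beta subunit of the thymus, and the base assembly chaperones Psmd5, Psmd9 and Psmd10. They also include Psmc3ip, a meiotic recombination factor that was matched by its symbol and is no proteasome subunit. Psmb11 had 65 reads over the 12 libraries and did not pass the filter on low counts, which left 44 members among 24660 genes tested. Psma8 passed the filter with 12 to 59 reads a library (0.158 to 0.737 CPM, read counts per 1000000 counts of the scaled library).

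Library totals ran from 41524501 to 109423243 counts, and the least counted of the members called below, Psmd5, had 1464 to 4217 reads a library. Smooth muscle markers, 8 genes, were high in every library and summed to 15925 to 18447 CPM in controls, 18210 to 20922 CPM on drug and 17492 to 20051 CPM off drug. Of these 3 rose on drug and 3 off drug against controls. Skeletal muscle markers, 10 genes, were low, with sums of 5.52 to 7.29 CPM in controls, 8.42 to 10.5 CPM on drug and 7.63 to 20.3 CPM off drug. Of the 9 tested 2 rose in each treated group against controls. With their mean level as a covariate 2 members were called down on drug and 0 off drug. Calls over all genes were also fewer under that covariate. On drug 735 rose and 451 fell, beside 1018 and 725 without it. Off drug 555 rose and 520 fell, beside 1545 and 1422 without it. The levels of other cell types differed between the groups too, and in bulk tissue fewer cells of a type and less RNA per cell cannot be told apart. The 8 erythroid markers summed to 4929 to 20576 CPM in controls, 3880 to 6005 CPM on drug and 2039 to 4804 CPM off drug. All 8 fell in the off-drug group against controls, and control replicate 4 held the highest sum. The 19 leukocyte markers summed to 423 to 506 CPM in controls, 470 to 555 CPM on drug and 376 to 424 CPM off drug. Endothelial markers, 8 genes, summed to 708 to 799.5 CPM in controls, 886 to 1028 CPM on drug and 638 to 832 CPM off drug. Of the marker genes listed, 0 were at 0 in every library. The comparison of each treated group with controls uses the same 4 control libraries, and both comparisons of the on-drug group use the same 4 on-drug libraries.

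The levels of the subunits were compared with each other per length, as CPM per kilobase of exon in the control libraries. The 14 constitutive core genes had a median of 32.6 CPM per kilobase, from 16.3 for Psmb7 to 101.7 for Psma2, an alpha subunit. The 17 cap genes had a median of 20.99 CPM per kilobase and ran from 3.39 for Psmd11, a lid subunit, to 52.8 for Psmc6, an ATPase of the base. All 3 immunoproteasome genes lay below the lowest core gene. Their levels were 9.87 ± 2.03 CPM per kilobase for Psmb10, 5.58 ± 1.43 for Psmb8 and 1.72 ± 0.587 for Psmb9 (SD, n = 4). Among the activators, Psme2 stood at 23.8 ± 0.724 and Psme1 at 19.5 ± 1.13 CPM per kilobase (SD, n = 4), and Psme4 at 14.9 ± 0.927.

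The order of genes within the core depended on the length used. With the length of the longest principal transcript in place of all exons, the lowest core gene was Psma3 at 27.5 CPM per kilobase and the highest was Psmb6 at 142. The principal transcripts come from a later GENCODE release than the counted exons. For some genes they are longer than all counted exons, as for Psma2 (2911 against 944 bases) and Psmb1 (1758 against 1036). Part of these transcripts was not counted, so the place of these genes on this length is not comparable. The immunoproteasome genes then stood at 12.8 for Psmb10, 9.38 for Psmb8 and 4.65 for Psmb9, again below every constitutive core gene.

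**Figure D1:**
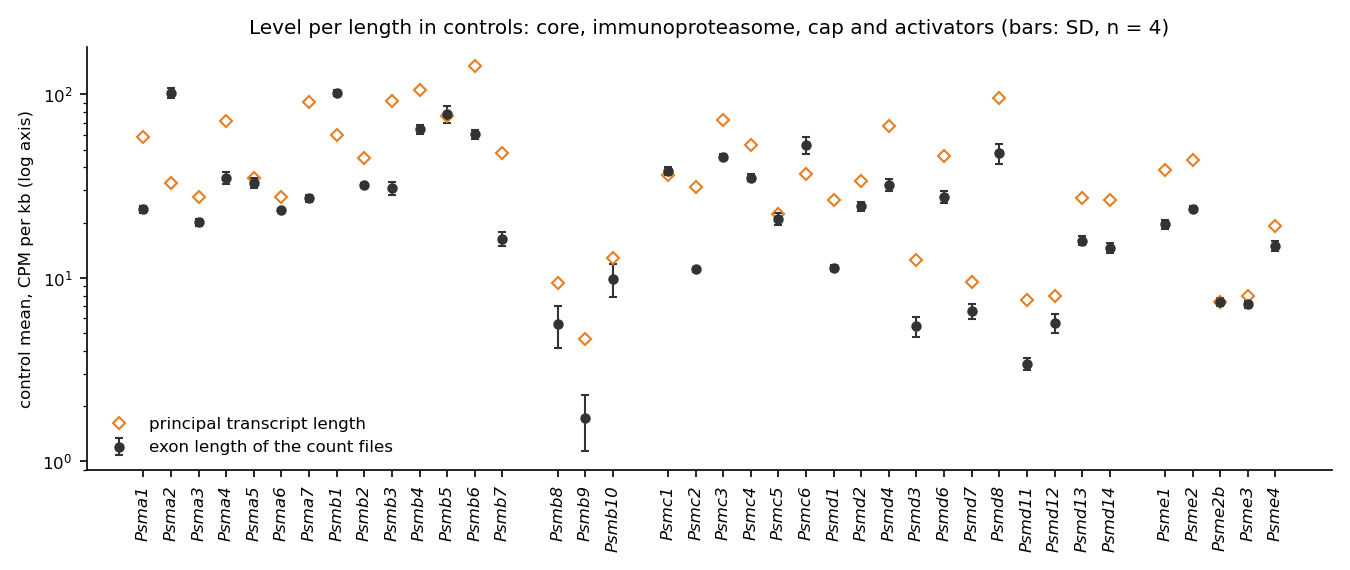
Mean level of each core, immunoproteasome, cap and activator gene in the 4 control libraries, as CPM per kilobase on a log axis, with SD bars for the exon length and open diamonds for the principal transcript length. The 3 immunoproteasome genes (1.72 to 9.87 CPM per kilobase of exon) lie below every constitutive core gene (16.3 to 101.7), while the order inside the core changes with the length used. For some genes, Psma2 and Psmb1 among them, the principal transcript is longer than all counted exons, so their diamonds are not comparable with the rest.

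Minoxidil given for 2 weeks was compared with plain water. Of the 44 members tested 0 rose and 4 fell, beside 4.13% of all genes tested that rose and 2.94% that fell (edgeR's quasi-likelihood test, adjusted p below 0.05). At an unadjusted p below 0.05, 1 lay above 0 and 13 below, and the share of all genes at that p is not given here. DESeq2 called 0 members up and 6 down, beside 1432 and 1334 of all genes. For limma-voom these were 0 and 4 members, beside 1013 and 735 of all genes. With library sizes not adjusted for composition, 1 member rose and 1 fell, beside 1038 and 388 of all genes. The 4 were Psma1 and Psma2 of the alpha ring, Psmb6, the catalytic beta subunit with caspase-like activity, and Psmd5, a chaperone that holds the base ATPases before they join the core. Every change was small, between 12.2% and 17.4% of the control level. Over the 44 members 32 values lay below 0, and the median log2 fold change was -0.11, against 0.00 for all genes tested, of which 49.1% lay below 0.

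Psmd5 had the smallest adjusted p of the members on drug. Its control libraries, replicates 1 to 4, held 37.9, 39.2, 44.3 and 40.1 CPM. Its on-drug libraries held 31.5, 34.5, 34.2 and 33.2 CPM. All 4 on-drug libraries were below all 4 controls. Psmd5 fell by 17.4% (log2 fold change -0.28 ± 0.06 SE, adjusted p = 0.0118, edgeR's quasi-likelihood test with Benjamini-Hochberg adjustment over all genes tested). This call was kept under all 25 other settings tried (adjusted p from 0.00107 to 0.0475).

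Psmb6 held 112, 105, 119.7 and 118 CPM in the control libraries and 101, 94.0, 95.3 and 94.7 CPM in the on-drug libraries. The groups did not overlap, with the highest on-drug library just under the lowest control. Psmb6 fell by 15.3% (log2 fold change -0.24 ± 0.06 SE, adjusted p = 0.0169, edgeR). The call was lost in 7 of 25 other settings.

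The alpha subunits Psma1 and Psma2 were closer to the threshold. Psma1 held 66.1, 69.6, 73.8 and 70.4 CPM in controls and 63.1, 60.5, 61.3 and 60.8 CPM on drug, and fell by 12.2% (-0.19 ± 0.05 SE, adjusted p = 0.0374, edgeR). Psma2 held 90.9, 93.7, 104.5 and 94.9 CPM in controls and 87.8, 84.1, 82.3 and 80.3 CPM on drug, and fell by 12.9% (-0.20 ± 0.06 SE, adjusted p = 0.0427, edgeR). In both genes the on-drug libraries were all below the controls, and control replicate 3 was the highest. The Psma1 call held in 11 and the Psma2 call in 9 of 25 other settings.

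The erythroid markers had 8 of 8 values below 0 on drug as well, with a median of -0.91 and 0 called (edgeR; 3 at an unadjusted p below 0.05, 0 by DESeq2 and limma-voom). With their mean level as a covariate, a setting added after the data were seen, Psmd5 kept a log2 fold change of -0.28 (adjusted p = 0.0290). Under the same covariate the log2 fold change was -0.19 for Psmb6 (adjusted p = 0.0764), -0.16 for Psma1 (adjusted p = 0.125) and -0.18 for Psma2 (adjusted p = 0.127, edgeR), and the median of the members was -0.05. Further than this, the part of the erythroid cells in these values was not tested.

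**Figure D2:**
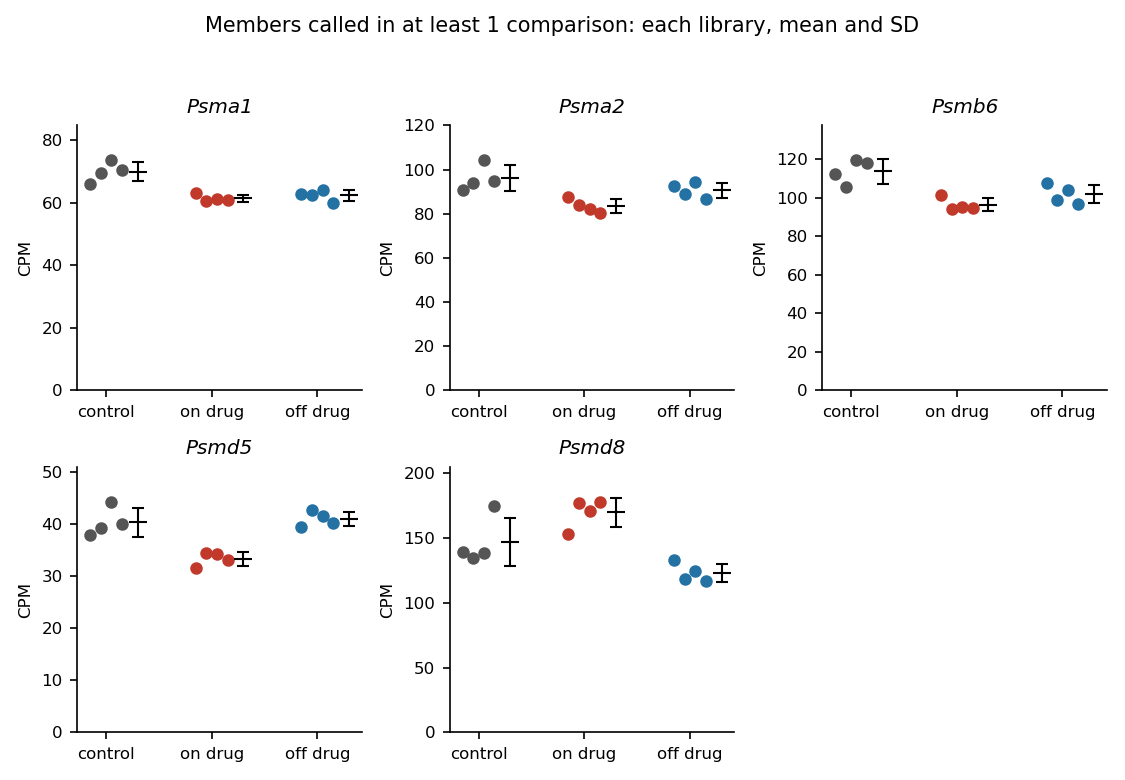
Level of the 5 members that passed the test in at least 1 comparison, in CPM, with each library as a point and the mean and SD of its group (n = 4) as a bar. Psmd5 is low on drug (31.5 to 34.5 CPM) and back in the control range off drug, and Psmd8 is lowest off drug (117 to 133 CPM).

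The stretch upstream of the RefSeq start of each called gene is shown because nearly all core and cap genes are thought to share transcription factors. This start can differ from that of the gene model counted. The Psmd5 window lies inside its counted model, and the Psmd8 and Psma1 windows overlap the start of theirs. Each line gives the 250 bases before the RefSeq start (GRCm38.p6), read 5′ to 3′ on the gene's own strand. Capitals mark CCAAT, the element NF-Y binds, or TGANNNNGC, the core of the element that Nfe2l1 and Nfe2l2 bind with small Maf proteins, on either strand.
Psmd5 (chr2:34870963-34871212, minus strand): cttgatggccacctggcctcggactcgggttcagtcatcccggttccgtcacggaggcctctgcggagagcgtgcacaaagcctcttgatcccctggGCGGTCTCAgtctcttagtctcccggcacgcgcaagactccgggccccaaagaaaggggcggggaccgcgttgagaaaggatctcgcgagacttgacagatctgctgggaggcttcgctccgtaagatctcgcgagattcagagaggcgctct
Psmd8 (chr7:29180674-29180923, minus strand): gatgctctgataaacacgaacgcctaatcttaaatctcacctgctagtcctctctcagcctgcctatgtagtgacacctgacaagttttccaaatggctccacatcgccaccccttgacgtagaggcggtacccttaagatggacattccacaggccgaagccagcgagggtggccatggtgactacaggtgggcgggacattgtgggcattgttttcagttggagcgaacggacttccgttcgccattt
Psmb6 (chr11:70525107-70525356, plus strand): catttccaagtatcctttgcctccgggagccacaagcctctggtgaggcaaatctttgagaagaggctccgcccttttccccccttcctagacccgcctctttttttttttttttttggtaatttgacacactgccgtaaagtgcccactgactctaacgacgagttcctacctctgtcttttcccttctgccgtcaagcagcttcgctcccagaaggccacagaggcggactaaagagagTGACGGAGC
Psma1 (chr7:114276117-114276366, minus strand): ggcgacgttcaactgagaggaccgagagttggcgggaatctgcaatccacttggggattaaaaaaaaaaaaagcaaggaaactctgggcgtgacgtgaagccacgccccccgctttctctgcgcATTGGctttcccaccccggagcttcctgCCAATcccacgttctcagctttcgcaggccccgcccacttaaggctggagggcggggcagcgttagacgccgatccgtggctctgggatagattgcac
Psma2 (chr13:14612992-14613241, plus strand): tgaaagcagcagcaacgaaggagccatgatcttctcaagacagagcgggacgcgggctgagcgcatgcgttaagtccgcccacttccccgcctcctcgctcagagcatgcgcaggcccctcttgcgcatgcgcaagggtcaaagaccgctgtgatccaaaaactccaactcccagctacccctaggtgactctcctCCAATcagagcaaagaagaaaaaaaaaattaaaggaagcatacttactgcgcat
Psmd5 and Psmb6 each held 1 match of TGANNNNGC, Psma1 held 2 of CCAAT and Psma2 held 1, and Psmd8 held 0 of both.

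Of the 45 members 38 had a RefSeq promoter, 41 promoters in all. TGANNNNGC was found in 39.0% of these and in 35.2% of all 32851 promoters of the same length. CCAAT was found in 36.6% and 33.8%. The interferon-type motif GAAANNGAA was found in 7.32% and 7.13%, the motif TTCNNNGAA in 2.44% and 7.02%, and the heat shock motif GAANNTTC in 4.88% and 6.69%, all searched on both strands. GAAANNGAA was put in place of a longer form of that motif after the longer form's result was seen, because the longer one's letters cannot be printed here. The longer form was in promoters of the same 3 members (Psmb3, Psmd4 and Psmd9) and in a smaller share of all promoters. Of the 3 immunoproteasome genes, Psmb9 held CCAAT, TGANNNNGC and GAANNTTC, Psmb8 held TTCNNNGAA, and Psmb10 held none of the 5 motifs in this window. The Psmb8 and Psmb9 windows lie inside the gene models counted, and the Psmb10 window overlaps the start of its own.

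The members were then read by class. Of the 14 constitutive core genes 3 fell, 11 lay below 0 and the median log2 fold change was -0.13. Of the 17 cap genes 0 fell, 10 lay below 0 and the median was -0.03. The 17 do not hold every cap subunit. Sem1, a small lid subunit whose symbol the rule does not match, fell on drug (-0.22, adjusted p = 0.0360, edgeR). At an unadjusted p below 0.05 the cap had 1 gene up and 0 down, and DESeq2 and limma-voom called 0. The difference between core and cap was not tested. The 5 activators had a median of -0.16 with 0 called (edgeR; 2 down at an unadjusted p below 0.05, 1 by DESeq2 and 0 by limma-voom), among them Psme2 at -0.24 (adjusted p = 0.0535), whose on-drug libraries were all below controls and which passed in 8 of 25 other settings. The 3 base assembly chaperones, which leave before the cap is finished, were Psmd5 (above), Psmd10 at -0.26 ± 0.11 SE (adjusted p = 0.159) and Psmd9 at 0.06.

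In 9 members the 4 on-drug libraries all lay below the 4 controls, and in 0 members all above, beside 6.01% and 6.30% of all genes tested. Beside the called 4 these were Psma7, Psmb4, Psmc2, Psmc3 and Psme2. The core accounted for 5 of the 9 (Psma1, Psma2, Psma7, Psmb4 and Psmb6).

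The constitutive core, summed over 14 genes, stood at 1062 ± 46.9 CPM in controls. On drug it stood at 971 ± 22.9 CPM (SD, n = 4), a difference of -8.59% in the means. The control libraries ran from 1016 to 1114 CPM and the on-drug libraries from 947 to 1000.6 CPM, without overlap. The 17 cap genes, which leave out Sem1, had sums of 1077 ± 35.2 CPM (controls) and 1078 ± 18.4 CPM (on drug), and their ranges overlapped. As a share of the CPM of all members, the cap made up 42.9% to 44.2% in control libraries and 44.5% to 46.2% on drug. The core made up 42.02% to 43.5% and 40.4% to 42.3%, which overlapped. Without Psmd8 the other 16 cap genes summed to 931 ± 24.2 CPM in controls and 909 ± 12.6 CPM on drug, also with overlap. No test was made on sums, since members share libraries and are not replicates.

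**Figure D3:**
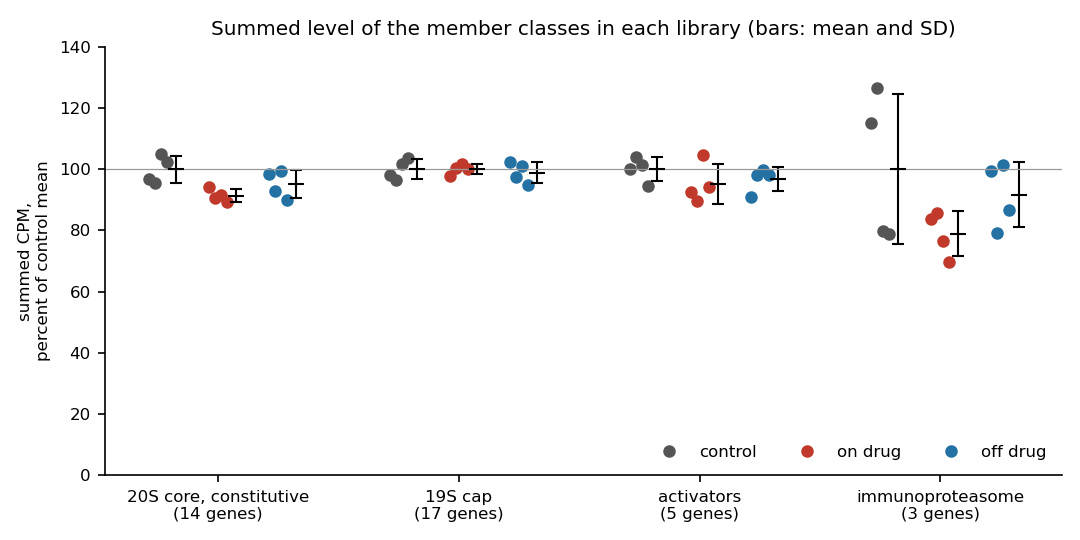
Summed CPM of the 14 constitutive core, 17 cap, 5 activator and 3 immunoproteasome genes in each library, as percent of the control mean, with mean and SD bars (n = 4). The on-drug core points lie below all control core points, the cap points of the 3 groups overlap, and the immunoproteasome controls are the most widely spread.

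Most members were measured closely enough to bound their change. On drug against control, the 95% interval of the fold change lay inside 2-fold either way for 43 of 44 members, inside 1.5-fold for 41 and inside 1.25-fold for 32. Psma8 was the member outside 2-fold, and Psma8, Psmb8 and Psmb9 were those outside 1.5-fold.

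The immunoproteasome subunits were lower in the mean on drug, and 0 of 3 passed the test (edgeR; 2 down at an unadjusted p below 0.05, 1 by DESeq2 and 0 by limma-voom). Psmb8, which replaces Psmb5 at the chymotrypsin-like site, held 17.1, 19.9, 11.8 and 12.3 CPM in controls, 11.99, 12.1, 11.5 and 10.3 CPM on drug and 11.9, 11.6, 14.7 and 11.6 CPM off drug, with the lowest 2 controls at a like level. Psmb10, which replaces Psmb7 at the trypsin-like site, held 19.6, 20.003, 13.7 and 14.0 CPM in controls, 14.4, 14.8, 13.4 and 11.8 CPM on drug and 18.4, 14.1, 17.2 and 16.2 CPM off drug. Psmb9, which replaces Psmb6, held 7.44, 8.67, 5.08 and 3.97 CPM in controls, 5.71, 6.05, 4.44 and 4.70 CPM on drug and 7.99, 4.71, 7.08 and 5.50 CPM off drug. Control replicates 1 and 2 were the 2 highest controls of all 3 genes, and the on-drug libraries of all 3 genes lay below both. Off drug, Psmb10 replicates 1 and 3 and Psmb9 replicates 1 and 3 lay nearer the higher controls.

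The log2 fold change on drug was -0.41 ± 0.15 SE for Psmb8 (adjusted p = 0.0978), -0.31 ± 0.13 for Psmb10 (adjusted p = 0.159) and -0.26 ± 0.23 for Psmb9 (adjusted p = 0.569, all edgeR). These values rest on the pair of high controls. Without control replicate 2 Psmb8 stood at -0.27 (adjusted p = 0.221), and without control replicate 3 or 4 it passed the test at -0.52 and -0.51 (adjusted p = 0.0383 and 0.0396).

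The same pair of controls was high for Tap1 of class I antigen presentation. Its product pumps peptides into the endoplasmic reticulum. The gene, whose exons share 5.79% of the exon bases of Psmb9, held 16.8, 21.5, 9.04 and 9.62 CPM in the 4 controls. The leukocyte markers summed to 455, 506, 480.2 and 423 CPM in the same 4 controls, and the cause of the split was not tested. Of the 17 genes listed for antigen presentation 16 lay below 0 on drug, with a median of -0.14 and 0 called (edgeR; 5 down at an unadjusted p below 0.05, 1 by DESeq2 and 0 by limma-voom).

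Each immunoproteasome subunit was set against the constitutive subunit whose place it takes. Psmb8 stood at 23.03% ± 8.10 of Psmb5 in controls, 18.8% ± 1.60 on drug and 19.6% ± 2.05 off drug, in CPM (SD, n = 4). Psmb10 stood at 30.2% ± 6.29, 24.4% ± 3.33 and 30.2% ± 2.59 of Psmb7 in the same order. Psmb9 stood at 5.62% ± 2.22, 5.43% ± 0.791 and 6.17% ± 1.19 of Psmb6. Per kilobase of exon the control shares were 7.33% for Psmb8, 60.5% for Psmb10 and 2.88% for Psmb9. These shares depend on the length used. Per kilobase of the longest principal transcript, Psmb10 stood at 12.8 and Psmb7 at 48.2 CPM in controls, a much lower share. On that length Psmb8 stood at 9.38 and Psmb5 at 75.8, and Psmb9 at 4.65 and Psmb6 at 142.

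Of the 9 tests of these ratios between groups 0 passed. The smallest p was 0.0571 (exact two-sided permutation test of the log2 ratio, adjusted p = 0.514 over 9 tests), for Psmb10 to Psmb7, which was 0.32 higher on the log2 scale off drug than on drug. With 4 libraries against 4 the smallest p the exact test can give is 0.0286. Of the constitutive partners, Psmb5 held 62.1, 62.0, 71.2 and 77.5 CPM in controls and 61.6, 58.4, 64.1 and 60.3 CPM on drug, which overlapped (-0.16 ± 0.08 SE, adjusted p = 0.226, edgeR). Psmb7 held 62.6, 51.8, 54.6 and 54.6 CPM in controls and 56.9, 52.7, 56.3 and 58.5 CPM on drug, at a log2 fold change of 0.01. Of the 3 constitutive catalytic subunits, Psmb6 was the one called.

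**Figure D4:**
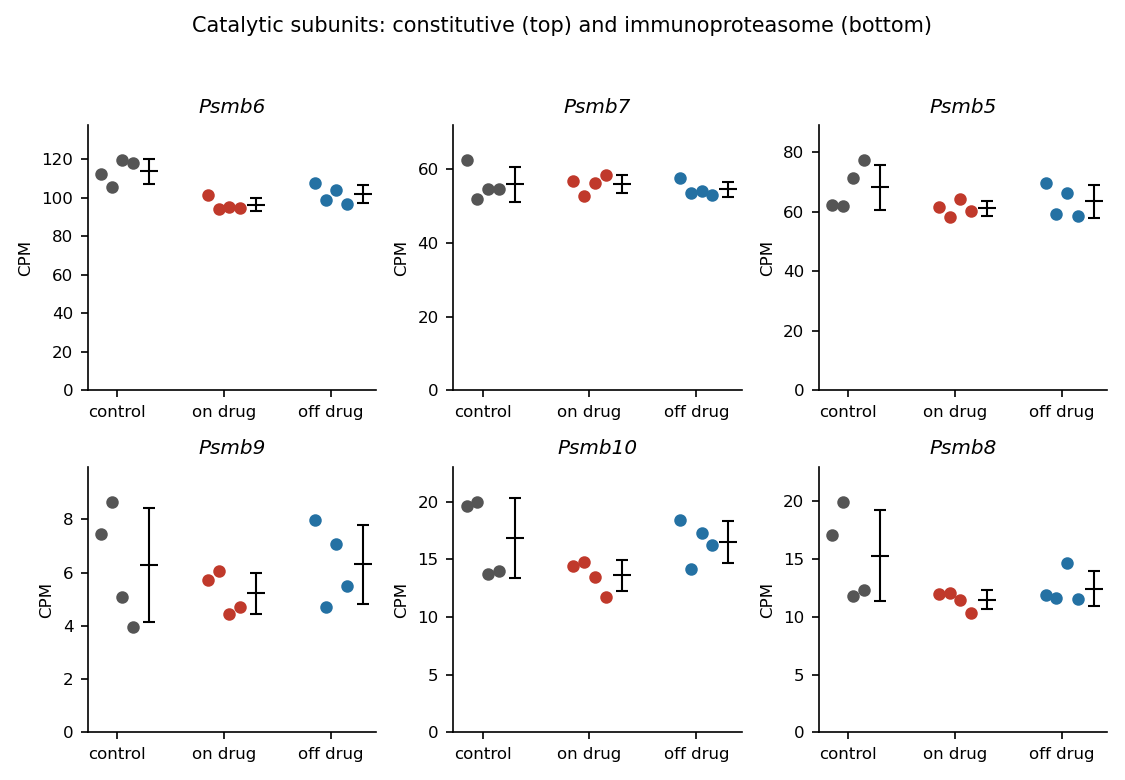
Level in CPM of the 3 constitutive catalytic subunits (top) and the 3 immunoproteasome subunits that replace them (bottom), with each library as a point and group mean and SD (n = 4) as bars. The immunoproteasome controls split, with replicates 1 and 2 above replicates 3 and 4 for all 3 genes, and the off-drug libraries of Psmb9 (4.71 to 7.99 CPM) and Psmb10 (14.1 to 18.4 CPM) spread between them.

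Mice taken off the drug for 1 week were then compared with controls. Of the 44 members 0 rose and 2 fell (edgeR), beside 6.27% and 5.77% of all genes tested. At an unadjusted p below 0.05, 4 lay above 0 and 5 below, again without the share of all genes. DESeq2 called 1 member up and 3 down, beside 1834 and 1879 of all genes. For limma-voom these were 1 and 2 members, beside 1541 and 1430 of all genes. With library sizes not adjusted for composition, 1 member rose and 0 fell, beside 1870 and 844 of all genes. The 2 were Psma1 and Psmd8, a lid subunit needed to finish the assembly of the lid. The median log2 fold change of the members was -0.02, against -0.01 for all genes tested, and 25 of 44 lay below 0.

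Psma1 held 62.9, 62.5, 64.2 and 60.0 CPM off drug, all below the controls given above, and fell by 10.8% (-0.16 ± 0.05 SE, adjusted p = 0.0486, edgeR). This call held in 7 of 25 other settings. Psmd5 was at 39.5, 42.7, 41.6 and 40.2 CPM, inside the range of the controls (0.02 ± 0.06 SE, adjusted p = 0.872). Psmb6 was at 107, 99.0, 104 and 96.7 CPM, 10.5% below controls and not called (adjusted p = 0.0784). Psma2 was at 92.5, 89.0, 94.4 and 86.6 CPM, which overlapped the controls (adjusted p = 0.397).

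Psmd8 showed the largest contrast between treated groups among the members. Its control libraries held 139, 134, 138 and 174 CPM, its on-drug libraries 153, 177, 170.3 and 178 CPM and its off-drug libraries 133, 118, 124 and 117 CPM. The off-drug libraries were below every control, which 7.73% of all genes tested also showed, and below every on-drug library, which 9.37% showed, while control replicate 4 lay among the on-drug libraries and the other 3 controls below them. Against controls Psmd8 fell by 16.1% off drug (-0.25 ± 0.08 SE, adjusted p = 0.0412, edgeR), a call that held in 10 of 25 other settings. Without control replicate 4 it stood at -0.16 (adjusted p = 0.159). On drug it stood at 0.21 ± 0.08 SE against controls (adjusted p = 0.110), and at 0.30 without control replicate 4 (adjusted p = 0.0140).

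Control replicate 4 was also the library with the highest erythroid sum. With the erythroid covariate Psmd8 stood at -0.01 ± 0.11 SE off drug against controls (adjusted p = 0.983). On drug against controls it stood at 0.31 (adjusted p = 0.0233, edgeR). The erythroid sums of off-drug and control libraries did not overlap, so this fit can hardly separate the covariate from the group. Under it 159 of all genes tested rose and 237 fell off drug against controls, beside 1545 and 1422 without it. The part of erythroid cells in the Psmd8 values was not tested.

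One more member was separated from the controls off drug. All 4 off-drug libraries of Psmd9, a base assembly chaperone, lay above all controls, beside 9.20% of all genes tested, at 0.22 ± 0.07 SE (adjusted p = 0.0577), and it passed in 4 of 25 other settings. The noncoding Gm26745 on the opposite strand shares 25.5% of its exon bases, and held 130 reads in all libraries against 12296 for Psmd9. The intervals again were narrow, inside 2-fold for 44 of 44 members, inside 1.5-fold for 42 and inside 1.25-fold for 35.

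The off-drug and on-drug groups were compared directly. Of the 44 members 1 rose and 1 fell, beside 5.44% and 6.92% of all genes tested. Psmd5 rose by 22.9% (0.30 ± 0.06 SE, adjusted p = 0.00312), with all 4 off-drug libraries above all 4 on-drug libraries. Psmd8 fell by 27.5% (-0.46 ± 0.08 SE, adjusted p = 0.00053, edgeR), the opposite direction. Both calls held in 25 of 25 other settings, with the erythroid covariate among them (adjusted p = 0.0425 for Psmd5 and 0.0307 for Psmd8).

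The median over the members was 0.06, and 34 of 44 lay above 0. In 5 members all off-drug libraries lay above all on-drug libraries, beside 9.44% of all genes tested. These were Psmc1, Psmc2, Psmd13, Psmd5 and Psme1, and the last, a subunit of the 11S activator, stood at 0.19 ± 0.06 SE (adjusted p = 0.0516) and passed in 12 of 25 other settings. Of the constitutive core 0 of 14 genes were called (edgeR, DESeq2 and limma-voom), 0 had an unadjusted p below 0.05, and the median was 0.05. Its summed level off drug, 1011 ± 48.0 CPM, lay between those of the other groups and overlapped both.

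**Figure D5:**
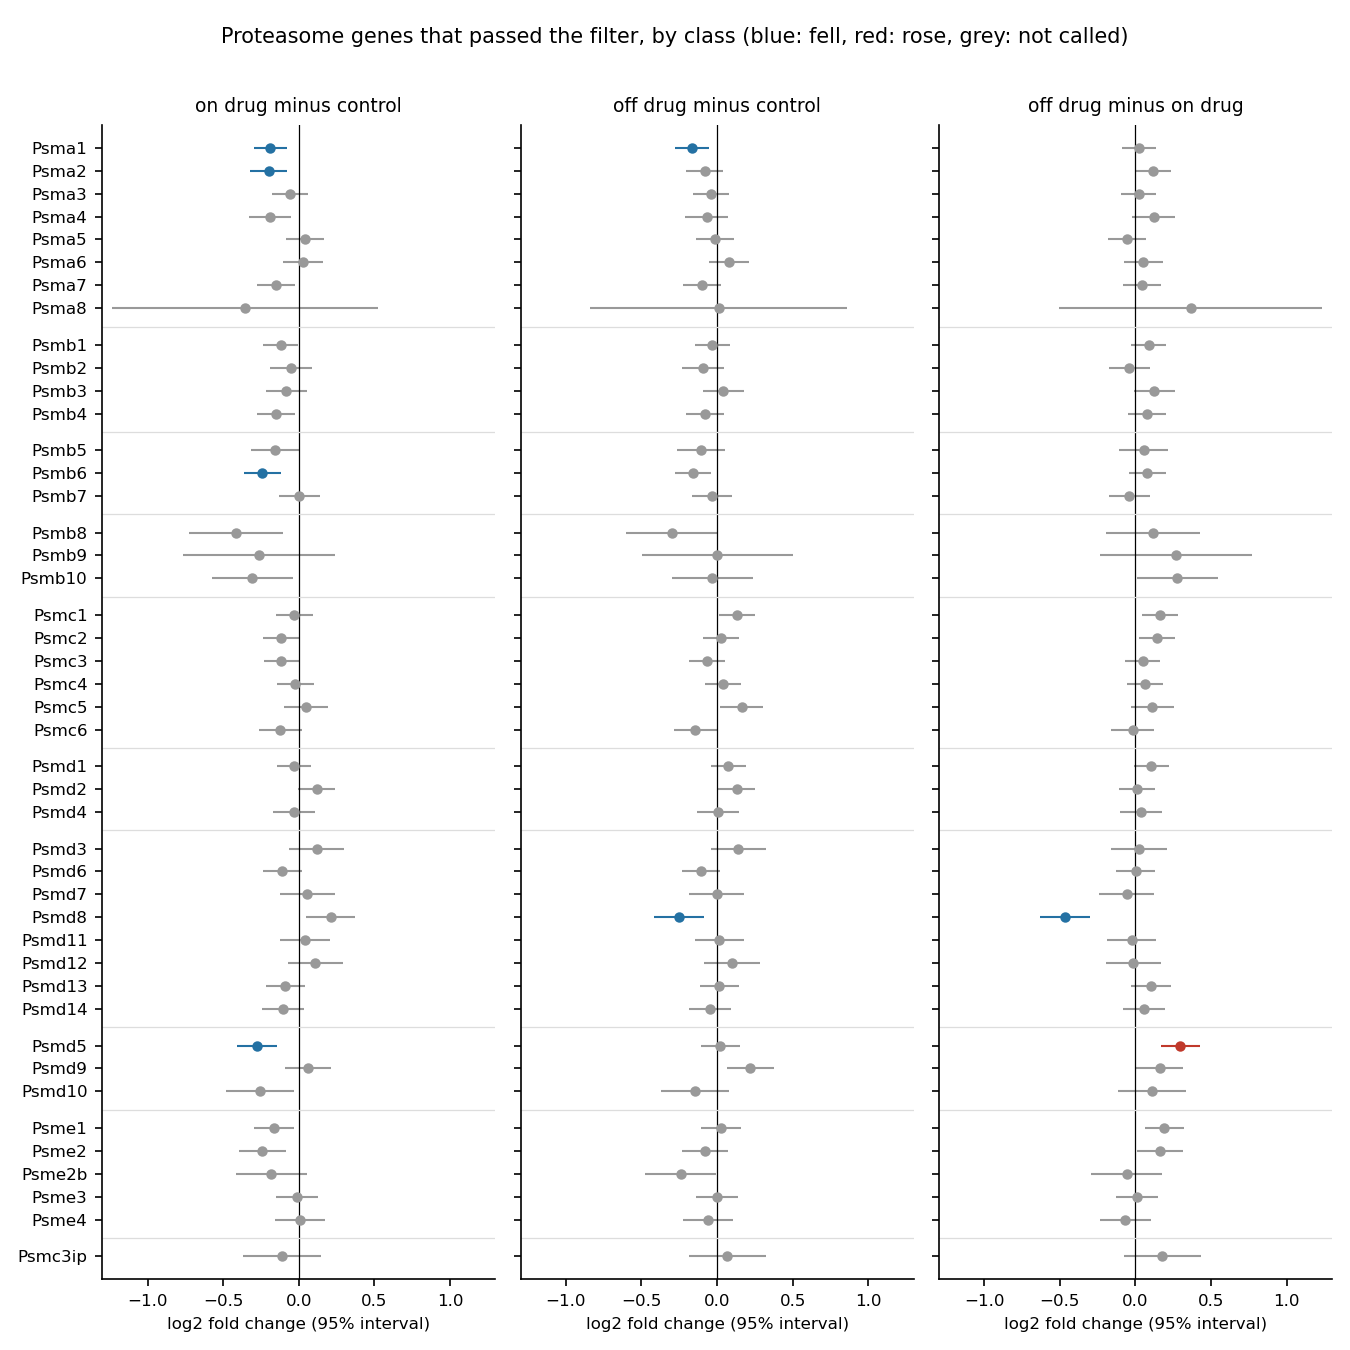
Log2 fold change of the 44 members tested in the 3 comparisons, with 95% intervals, grouped by class and with called members in colour. Of the members 4 fell on drug, 2 were below controls off drug, and between off drug and on drug Psmd5 rose while Psmd8 fell.

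Other genes of the pathway were read from lists. Among 7 assembly chaperones and further subunits, Sem1, a small lid subunit, fell on drug (-0.22 ± 0.06 SE, adjusted p = 0.0360, edgeR). It held 72.3, 72.0, 81.4 and 71.8 CPM in controls and 67.9, 66.4, 62.3 and 58.6 CPM on drug, without overlap. Psmg3, which helps build the alpha ring, rose off drug against on drug (0.41 ± 0.12 SE, adjusted p = 0.0299). The core maturation factor Pomp did not pass in any comparison, with values of -0.12 on drug and -0.12 off drug against controls.

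Among 14 factors that bind the proteasome, 1 fell on drug. It was Txnl1, a thioredoxin of the cap (-0.25, adjusted p = 0.0249), which also fell off drug against controls (-0.27, adjusted p = 0.0105). Psmf1, an inhibitor of the core, rose off drug against controls (0.29 ± 0.07 SE, adjusted p = 0.0103) and against the on-drug group (0.27, adjusted p = 0.0177). It held 25.1, 21.5, 23.6 and 23.5 CPM off drug and 18.1 to 20.6 CPM in controls, without overlap. Ddi2, the protease that activates Nfe2l1, fell off drug against on drug (-0.28, adjusted p = 0.00195), and Zfand2a, a stress-induced cap partner, rose (0.25, adjusted p = 0.00698).

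Among 13 genes listed for the transcriptional control of proteasome genes, Nfe2l1 itself was not called in any comparison. It stood at 0.10 ± 0.07 SE on drug and 0.07 ± 0.07 SE off drug against controls. Nfe2l2, which drives the antioxidant response, rose off drug against controls (0.40 ± 0.07 SE, adjusted p = 0.00136). The small Maf proteins pair with both. Mafk fell off drug against controls (-0.75 ± 0.06 SE, adjusted p = 5.81e-07), from 123 to 147 CPM in controls to 75.0 to 81.8 CPM. Maff fell as well (-0.66 ± 0.10 SE, adjusted p = 0.000356). Off drug against on drug both fell too, Mafk at -0.95 (adjusted p = 3.46e-08, edgeR) and Maff at -0.95 (adjusted p = 6.80e-06, edgeR). In that comparison Stat3 also fell (-0.34, adjusted p = 0.00180, edgeR), while Nfe2l2 rose (0.34, adjusted p = 0.00410, edgeR). Nfya, the regulatory subunit of NF-Y, fell on drug (-0.27 ± 0.08 SE, adjusted p = 0.0403, edgeR; 0.0734 by limma-voom) and rose off drug against on drug (0.34, adjusted p = 0.00550). On drug edgeR called 0 genes of this list up (3 at an unadjusted p below 0.05), while DESeq2 and limma-voom each called 2, Mafk among them (edgeR 0.20, adjusted p = 0.0625).

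Of 10 genes of the p97 unfoldase and its cofactors, which hand substrates to the proteasome, 0 were called in any comparison (edgeR). At an unadjusted p below 0.05 there were 1 up on drug, 1 up and 2 down off drug against controls and 1 down off drug against on drug, and DESeq2 called 1 down off drug against controls and limma-voom 0. Of the antigen presentation list 3 fell off drug against controls, Calr (-0.69), Pdia3 (-0.38) and Canx (-0.28), which are general folding factors of the endoplasmic reticulum. Of 9 muscle ubiquitin ligase and autophagy genes tested, Sqstm1, an adaptor for ubiquitin-tagged cargo, rose off drug against controls (0.31, adjusted p = 0.00725) and the lysosomal protease Ctsl fell (-0.21, adjusted p = 0.0346).

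Where genes share sequence the counts are less certain. Psme2 and Psme2b transcripts are identical at 789 of 794 aligned bases, and reads that map to several places were counted at each, so their values are not independent. Exon bases are shared, among other overlaps, between Psmb7 and Nek6 (11.8% of Psmb7), between Psmb5 and Mir686 (12.5%) and between Psmc3ip and Mlx (21.2%). Psmb8 shares 6.80% of its exon bases with Gm20496 on the opposite strand, which held 6178 reads in all libraries against 11093 for Psmb8. Counting set no strand, so reads on shared bases were counted for both genes. The 5 called members share no exon bases with another gene model. Psmd5 spans chr2:34849734-34874968, Psmd8 chr7:29174188-29180701, Psmb6 chr11:70525367-70527858, Psma1 chr7:114264606-114276118 and Psma2 chr13:14613242-14625671 (GRCm38), and each value counts reads over all exons of the gene.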

How the data were processed

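RNA-seq of 12 aortae was read from files the authors deposited. The read counts per gene were made by the authors with featureCounts 1.4.6-p3 on GENCODE M13, with a STAR 2.5.3a index, per the file headers, and the submitters' processing notes name the build GRCm38. The headers' options count multi-mapped and overlapping reads at each place, ignore duplicates and set no strand. The series table deposited by the authors holds log2 values equal to log2(count / size factor + 1) within 5.03e-09, and gave gene types and symbols only. Members and lists were chosen with earlier results of these data known.

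In R 4.3.3, counts were filtered (filterByExpr, minimum count 10, minimum total 15), scaled by TMM and fitted over all 12 libraries with edgeR 4.0.16 (robust glmQLFit). The 3 contrasts were tested two-sided with glmQLFTest, with Benjamini-Hochberg adjustment over 24660 genes and calls below 0.05. The steps were tested on simulated data. CPM use TMM-scaled library sizes. P-values set a difference between groups against the spread between these libraries. Pair ratios had exact permutation tests. Values are given for the catalytic subunits, up to 8 called members per comparison and up to 3 called genes per list and comparison, by smallest adjusted p; genes named beyond these were chosen after their values were seen. Other settings included DESeq2 1.42.0 and limma 3.58.1. Some results of the fixed lists are not reported here. Promoters came from RefSeq, and principal transcripts from GENCODE M21.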

Additional observations from a re-analysis of the deposited data

Results flagged for a closer look

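Of 132 groups of 4 values (44 members in 3 groups), 9 held a library far from the other 3, or 6.82%, where chance flags about 1 in 20. Psmd8 in control replicate 4 stood at 174 CPM, against 134 to 139 CPM in the other controls, and Psmd7, another lid subunit, was low in the same library at 12.7 CPM, against 15.5 to 15.8 CPM. The ubiquitin receptor Psmd2 stood at 108 CPM in control replicate 1, against 95.6 to 97.1 CPM. Psmd13 of the lid was low in on-drug replicate 2 at 46.3 CPM, against 51.9 to 52.4 CPM. Off-drug replicate 3 was high for 3 genes, with Psmb8 at 14.7 CPM against 11.6 to 11.9, Psme2 at 45.6 CPM against 37.6 to 37.9 and Psmd13 at 58.2 CPM against 52.7 to 53.6. Psma6 of the alpha ring stood at 27.2 CPM in off-drug replicate 4, against 31.1 to 31.8 CPM. Psmc3ip, which is no proteasome subunit, stood at 6.39 CPM in off-drug replicate 1, against 7.59 to 7.84 CPM.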

How the results depend on the processing

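Of the 25 other settings, DESeq2 and limma-voom with quality weights changed several choices together and the others 1 each, the erythroid covariate being chosen after the data were seen, and the cause of the changes was not tested. The fall of Psmd8 off drug against on drug was the 1 member called down in all 25, and Psmd5 kept both of its calls. On drug against control, library size without composition factors gave 1 member up and 1 down, no filter 1 up, the 2 groups alone 2 down, the leukocyte covariate 1 down, the skeletal muscle covariate 2 down, and the erythroid covariate 1 up, 1 down and a median of -0.052. The member up was Psmd8 in each of these fits. Leaving out 1 library gave 0 to 1 up (Psmd8, without control replicate 4) and 1 to 6 down, with 1 down without on-drug replicate 2, 3 or 4, 2 without control replicate 2 or 3 or off-drug replicate 2, and 6 without on-drug replicate 1. The calls over all genes moved as well, on drug from 1018 up and 725 down to 494 and 376 with the leukocyte covariate. They were 472 and 331 without on-drug replicate 3, and 1330 and 960 without on-drug replicate 1. Off drug against control, library size alone gave 1 member up, 0 down and a median of 0.033. Over all genes that setting gave 1870 up, 844 down and a median of 0.050. The stricter filter, DESeq2 and limma-voom each gave 1 up, as library size did, namely Psmd9. No filter and the non-robust fit each gave 1 down, and the 2 groups alone and the leukocyte, adipocyte, skeletal muscle and erythroid covariates each gave 0 down. Leaving out 1 library gave 0 to 1 up (Psmc5, without control replicate 1) and 0 to 2 down, with 0 or 1 down in every fit but those without control replicate 1 or 2 or on-drug replicate 1. Off drug against on drug, Psme1 joined Psmd5, giving 2 up with DESeq2 size factors, the stricter filter, DESeq2, limma-voom, the 2 groups alone and the skeletal muscle covariate, and 1 to 2 up with 1 library left out (2 without control replicate 1, 3 or 4, off-drug replicate 2 or on-drug replicate 1). The median then ran from 0.039 (without off-drug replicate 3) to 0.10 (without off-drug replicate 4).

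With replicate block, that is replicate number as a term, 3 members were down on drug and 0 off drug against control, and 2 were up and 1 down off drug against on drug. Same-numbered libraries did not deviate together (correlations from -0.08 to 0.07), so the numbers name samples and do not pair them. Values near 0 changed sign. Psmb7 on drug was -0.0027 with DESeq2 size factors, -0.0024 with DESeq2 and -0.0021 with the 2 groups alone, and ran from -0.040 to 0.057 with 1 library left out. Off drug against control, Psmb7 was 0.022 and Psmb10 was 0.018 with library size alone. Psmb9 was -0.0030 with DESeq2 size factors, -0.0045 without filter, -0.0021 with DESeq2, -0.013 with the adipocyte and -0.29 with the erythroid covariate. Psmb10 was 0.15 and Psmd5 -0.013 with the skeletal muscle covariate, and Psmb5 was 0.18 with the erythroid covariate, under which Psmb8 was -0.071 off drug against on drug. With 1 library left out, off drug against control ran from -0.076 to 0.021 for Psmb7, -0.12 to 0.056 for Psmb10, -0.011 to 0.068 for Psmd5 and -0.17 to 0.19 for Psmb9. The log2 pair ratios then ran from -0.33 to 0.014 (Psmb8 to Psmb5), -0.062 to 0.14 (Psmb10 to Psmb7) and -0.014 to 0.42 (Psmb9 to Psmb6) off drug, and from -0.19 to 0.24 (Psmb9 to Psmb6) on drug, against control. Of the 9 ratio tests 0 passed with 4 libraries a group, and with 3 against 4 the exact test cannot go below 0.0571, so those fits say nothing of stability. Depth was lowest for Psma8 (12 to 59 reads a library).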
